A study of Mus musculus with 4 samples.

Results

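Transcripts of 7 genes of cholesterol synthesis were measured by bulk mRNA-seq of mouse liver. The 7 genes were chosen by name, with earlier results of these data known. They are Srebf2, which encodes the transcription factor of the pathway, and the 6 enzyme genes Hmgcs1, Idi1, Fdps, Sqle, Lss and Cyp51. All 7 were found among the 13903 genes of the deposited table. No gene of LDL uptake is among the 7, although the name under which they were grouped speaks of it, and uptake is described below through other genes.

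The livers came from OGT-floxed mice on a C57BL/6J background that ate a choline-deficient, ethionine-supplemented diet (CDE), a model of liver injury. The OGT-KO label stands for AAV8-TBG-CRE, a virus with Cre recombinase under a hepatocyte promoter, which deletes O-GlcNAc transferase (OGT), and the control label for AAV8-TBG-eGFP in its place. Mice were sampled without recovery from the diet or after a 7 day recovery. The floxed allele, the diet and a virus were thus shared by all 4 groups, and no group without the diet was among them. Each group was 1 library of equally pooled RNA from 3 mice, so differences between groups have no replicate error and no p-value is given. Age and sex of the mice are not given in the sources used here, and cells other than hepatocytes are not targeted by this promoter and keep their Ogt.

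Cholesterol is built from acetyl-CoA through mevalonate, isoprenoid units and squalene to lanosterol, which is then trimmed to cholesterol. Hepatocytes carry much of this synthesis in the body. When sterols in the endoplasmic reticulum run low, SCAP escorts the SREBP2 precursor to the Golgi, where it is cut, and the freed factor raises the transcription of the enzyme genes and of Srebf2 itself. Such regulation acts on the protein, so the mRNA of Srebf2 does not measure the activity of the factor.

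The factor is known to bind sterol regulatory elements in the promoters of its targets, often beside CCAAT boxes, which bind NF-Y. Promoter sequence was found in RefSeq (GRCm38.p6) for 5 of the 7 genes, Srebf2, Hmgcs1, Lss, Cyp51 and Idi1. The 250 bases before the start of each are shown because the levels of these genes are compared below, with matches to an SRE-like core (TCACCNCA) and to CCAAT in capitals, on either strand. The letters of the core were chosen after these promoters had been seen.
Srebf2, chr15:82147019-82147268, plus strand: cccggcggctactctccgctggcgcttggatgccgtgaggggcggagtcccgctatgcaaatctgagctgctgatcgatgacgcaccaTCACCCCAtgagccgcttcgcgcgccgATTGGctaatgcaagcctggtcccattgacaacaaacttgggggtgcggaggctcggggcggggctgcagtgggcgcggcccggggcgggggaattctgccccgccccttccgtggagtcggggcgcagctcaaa
Hmgcs1, chr13:119690101-119690350, plus strand: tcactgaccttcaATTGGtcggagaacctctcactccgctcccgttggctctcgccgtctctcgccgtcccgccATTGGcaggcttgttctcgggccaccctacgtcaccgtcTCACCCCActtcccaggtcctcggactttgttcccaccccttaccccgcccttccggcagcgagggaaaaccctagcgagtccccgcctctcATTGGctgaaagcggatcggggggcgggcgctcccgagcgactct
Lss, chr10:76531355-76531604, plus strand: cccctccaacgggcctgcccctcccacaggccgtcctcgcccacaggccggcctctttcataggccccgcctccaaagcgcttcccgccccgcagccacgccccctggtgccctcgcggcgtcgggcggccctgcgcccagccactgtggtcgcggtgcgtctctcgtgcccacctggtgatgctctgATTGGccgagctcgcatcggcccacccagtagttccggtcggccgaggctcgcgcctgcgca
Cyp51, chr5:4104698-4104947, minus strand: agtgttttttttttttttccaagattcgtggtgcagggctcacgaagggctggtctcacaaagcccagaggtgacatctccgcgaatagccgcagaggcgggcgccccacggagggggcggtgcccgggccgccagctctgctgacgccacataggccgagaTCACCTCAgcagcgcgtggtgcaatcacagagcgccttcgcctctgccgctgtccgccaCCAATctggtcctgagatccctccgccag
Idi1, chr13:8885356-8885605, plus strand: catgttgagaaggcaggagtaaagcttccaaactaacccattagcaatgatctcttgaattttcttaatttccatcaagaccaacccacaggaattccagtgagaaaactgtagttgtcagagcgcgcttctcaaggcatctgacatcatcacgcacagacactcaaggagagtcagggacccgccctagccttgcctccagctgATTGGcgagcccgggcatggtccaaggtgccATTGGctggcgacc
The SRE-like core was matched once each before Srebf2, Hmgcs1 and Cyp51, at 162, 137 and 88 bases before the start, and was not matched in the windows of Lss and Idi1. It was found in 3.63% of 32536 distinct RefSeq promoter windows of the same length. CCAAT was matched at least once in all 5 windows and in 33.8% of all windows. The GC box GGGCGG was matched in all 5 windows as well, against 33.0% of all windows. None of the matches overlapped another. These matches describe letters and not bound sites.

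Values are CPM, reads per 1000000 reads on the listed genes, and whole reads were recovered from them. The libraries held 19972699 to 22866431 reads, and 3 reads, taken as the smallest level shown, were 0.131 to 0.150 CPM. Intervals of levels are exact Poisson intervals and those of ratios are exact binomial intervals on the recovered reads. All are at 95% and cover counting error only, not the spread between mice. Differences are those of log2(CPM + 1) and were called at 2-fold among the 8963 genes whose mean level was 10 CPM or more. All 7 genes passed this filter, Fdps only through its level in the control-labelled libraries.

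Ogt itself was at 55.3 CPM in the OGT-KO-labelled library and 64.7 in the control-labelled library with no recovery. After 7 days it was at 77.7 and 55.7 CPM, so at the deposited scaling its level over the whole gene went against the label at that time. Directions are therefore given between libraries as they are labelled. Between the labels, the median log2 difference of all genes tested was 0.51 with no recovery and 0.48 after 7 days at the deposited scaling. Less this median, the log2 difference of Ogt was -0.73 and then -0.005. Such differences are also given below for Srebf2 and Lss. The direction of other named genes turned on this median too and is given at the deposited scaling only. Examples are Acat2 and Lrp1 after 7 days, Nus1 and Lcat with no recovery and Tat at both times. Markers of other liver cells differed between the labels as well. The summed level of 5 stellate and myofibroblast markers was 2243 and 2867 CPM in the OGT-KO-labelled libraries and 92.6 and 68.2 in those labelled control, and that of 5 bile duct and progenitor markers was 1148 and 1457 against 53.7 and 69.6. Macrophage markers summed to 498 and 370 against 157 and 60.3, and 4 endothelial markers to 224 and 165 against 143 and 103. Ptprc, a gene of leukocytes in general, had 33.8 and 31.7 CPM against 6.16 and 2.55, and the T and B cell markers Cd3e, Cd79a and Cd79b were at 2.23 CPM or less in every library. The 5 hepatocyte markers, led by Alb, summed to 49336 and 59599 against 65697 and 70752 CPM, which are high in all 4 libraries as the tissue label says. This sum is mostly Alb, and singly the markers differed. With no recovery, the ratio of OGT-KO to control was 0.268 for Serpina1c, 0.307 for Apoa2, 0.547 for Ttr, 0.864 for Alb and 1.11 for Tat. After 7 days it ran from 0.283 for Serpina1c to 1.37 for Tat. None of these markers was at 0 in any library. Their part in the results was not tested, and in bulk RNA fewer hepatocytes and less of a transcript per hepatocyte cannot be told apart.

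With no recovery, all 6 enzyme genes were lower in the OGT-KO-labelled library than in the control-labelled library, and Srebf2 was level. The enzyme genes were at 0.246 to 0.639 of control. Idi1, Fdps and Hmgcs1 were past 2-fold, which is 3 of the 7 genes where 5.69% of all genes tested were called lower. None of the 7 was called higher, where 24.4% of all genes were. As the genes and lists were chosen with earlier results known, such counts beside shares are descriptions, here and below, and not tests. The median log2 difference of the 7 was -0.70, or -1.21 less the median of all genes.

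Srebf2 (ENSMUSG00000022463), the factor, had 80.2 CPM in the OGT-KO-labelled library and 80.1 in the control-labelled library with no recovery. After 7 days it had 105 CPM in the OGT-KO-labelled library and 78.6 in the control-labelled library. Both control-labelled libraries and that labelled OGT-KO with no recovery thus lay within counting error of one another, and the OGT-KO-labelled library after 7 days stood above them. The ratio of OGT-KO to control was 1.001 (0.937 to 1.07) at first and 1.33 (1.25 to 1.42) after 7 days. Less the median of all genes, its log2 difference was -0.51 and -0.069, and with upper-quartile or median-ratio scaling it was below 0 at both times.

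Hmgcs1 (ENSMUSG00000093930) encodes the cytosolic HMG-CoA synthase, which makes the precursor of mevalonate. It had 168 CPM in the OGT-KO-labelled library and 348 in the control-labelled library with no recovery, and 290.1 and 351 CPM after 7 days. The OGT-KO-labelled library with no recovery was the low one, and the other at 7 days stood between it and the controls. The ratio was 0.482 (0.463 to 0.501) and then 0.826 (0.799 to 0.854).

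Idi1 (ENSMUSG00000058258) encodes isopentenyl diphosphate isomerase, which interconverts the isoprenoid units. It had 9.40 CPM in the OGT-KO-labelled library and 38.3 in the control-labelled library with no recovery, and 19.4 and 41.2 CPM after 7 days. Both OGT-KO-labelled libraries were below both labelled control, and the one at 7 days was the higher of the pair. Control was 4.07-fold higher (3.50 to 4.76) and then 2.13-fold higher (1.89 to 2.39). With no recovery, 1.97% of all genes tested had a lower log2 difference.

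Fdps (ENSMUSG00000059743) encodes farnesyl diphosphate synthase, which joins the units into the branch point of sterols and other isoprenoids. It had 6.04 CPM (138 reads) in the OGT-KO-labelled library and 19.9 (422 reads) in the control-labelled library with no recovery, and 10.1 and 22.4 CPM after 7 days. The order of the 4 libraries was that of Idi1, at fewer reads. Control was 3.29-fold higher (2.71 to 4.02) and then 2.22-fold higher (1.88 to 2.61). The level of Fdps is uncertain, because in the GENCODE M21 annotation 6 other genes match at least 50% of its longest coding transcript at 90% identity or more. Among these is Gm43738, a coding gene that holds 81.6% of that transcript at 100% identity, and 5 are processed pseudogenes. Idi1 has 4 such partial matches, each covering at most 22.6% of its transcript, and Srebf2 and Sqle have none. Hmgcs1 and Lss each have 1 antisense gene and Cyp51 has Akap9, over 16.2%, 5.59% and 5.47% of the transcript.

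Sqle (ENSMUSG00000022351) encodes squalene epoxidase, an oxygen-dependent and rate-limiting step after squalene. It had 45.4 CPM in the OGT-KO-labelled library and 71.6 in the control-labelled library with no recovery, and 52.6 and 97.0 CPM after 7 days. Both libraries with the OGT-KO label were below both controls. As a ratio of the times, and unlike in the other enzyme genes, the controls differed more than the OGT-KO-labelled libraries did, at 1.35 against 1.16. The ratio of OGT-KO to control was 0.634 (0.585 to 0.687) and then 0.542 (0.504 to 0.583).

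Lss (ENSMUSG00000033105) encodes lanosterol synthase, which closes the sterol rings. It had 34.5 CPM in the OGT-KO-labelled library and 54.0 in the control-labelled library with no recovery, and 56.9 and 53.8 CPM after 7 days. Only the OGT-KO-labelled library with no recovery stood apart, and the other 3 overlapped in their counting intervals. The ratio was 0.639 (0.583 to 0.700) and then 1.06 (0.973 to 1.15). After 7 days, its log2 difference of 0.078 lay 0.40 below the median of all genes, and it was below 0 with upper-quartile and median-ratio scaling.

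Cyp51 (ENSMUSG00000001467) encodes the lanosterol demethylase that begins the trimming. It had 108 CPM in the OGT-KO-labelled library and 177 in the control-labelled library with no recovery, and 114 and 183 CPM after 7 days. The libraries parted by label alone, and the 2 times of each label lay within counting error. The ratio was 0.612 (0.582 to 0.644) and then 0.622 (0.591 to 0.655).

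**Figure D1:**
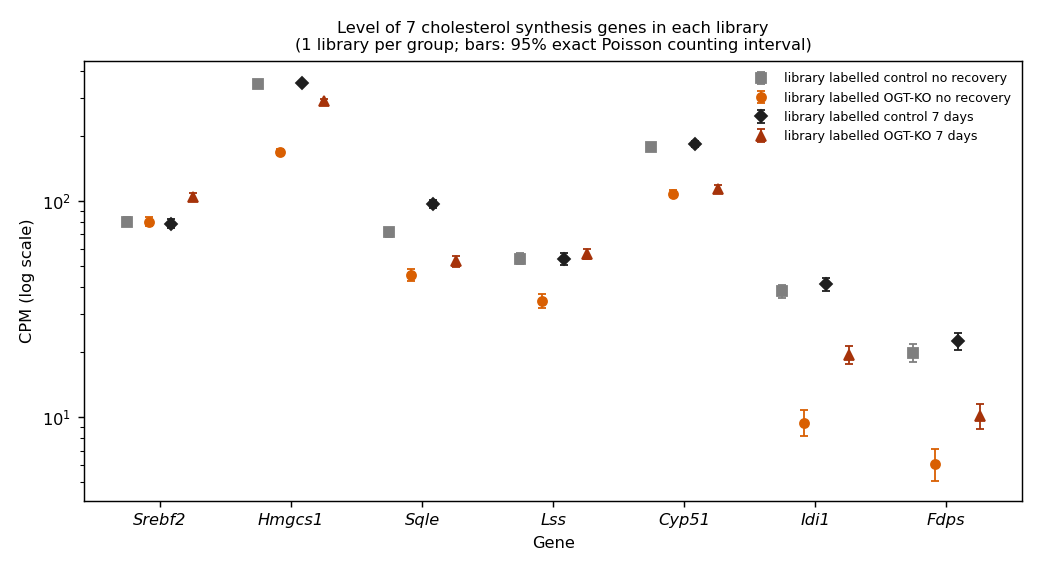
CPM on a log axis of the 7 genes in the 4 libraries, each point 1 library and each bar its 95% exact Poisson counting interval. Both OGT-KO-labelled libraries lie below both labelled control for Hmgcs1, Sqle, Cyp51, Idi1 and Fdps, and only the one with no recovery lies low for Lss.

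Levels of different genes were compared only per kilobase of the union of their annotated exons (GENCODE M21). On this scale Hmgcs1 was the highest in all 4 libraries, at 75.8 CPM per kilobase in the control-labelled library with no recovery and 36.5 in that labelled OGT-KO, and Cyp51 was next, at 40.1 and 24.5. Srebf2 followed in both OGT-KO-labelled libraries, at 11.2 and 14.6 CPM per kilobase, and Sqle followed in both labelled control, at 12.9 and 17.5. Fdps was the lowest in 3 libraries, and in the control-labelled library after 7 days it had 5.32 against 4.99 for Lss. This order depends on the length used. The exon union has 4208 bases for Fdps and 10787 for Lss, and their longest coding transcripts have 1382 and 4667. By transcript length the order may differ, and the level of Fdps is uncertain as given above.

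After 7 days of recovery, 5 of the 7 genes were still lower in the OGT-KO-labelled library, and Srebf2 and Lss were not. Idi1 and Fdps were past 2-fold, which is 2 of 7 where 4.27% of all genes tested were called lower, and none of the 7 was called higher, where 22.9% were. The log2 differences ran from -1.07 for Fdps to 0.41 for Srebf2. Their median was -0.68, or -1.16 less the median of all genes, which is near the value with no recovery. Cyp51 was the middle gene at both times, so the median does not show how the others moved. The summed level of the 6 enzyme genes was at 0.524 of control with no recovery and 0.725 after 7 days. All 7 were below the median of all genes at both times. At both times the call counts depend on the scaling, since 81.1% and 84.3% of all called genes were higher in the OGT-KO-labelled library at the deposited scaling, 52.9% and 60.0% with upper-quartile scaling and 36.6% and 45.9% with median-ratio scaling. With either of these scalings 6 and 4 of the 7 genes were past 2-fold lower, and all 7 were below 0.

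**Figure D2:**
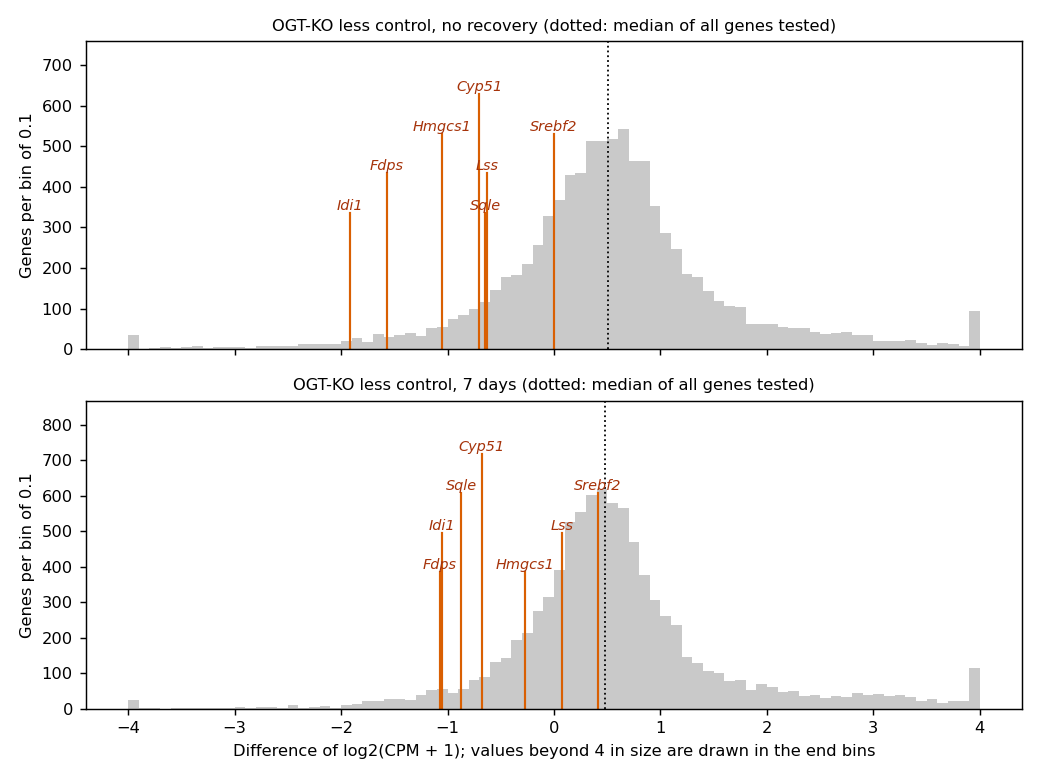
Histograms of the log2 difference between the OGT-KO-labelled library and that labelled control over the 8963 genes tested, with no recovery above and after 7 days below, in bins of 0.1, the dotted line being the median. The orange lines, whose heights have no meaning, mark the 7 genes, which all lie left of the median of 0.51 and 0.48, Srebf2 nearest to it.

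Between the times, the 2 labels were compared separately. In the OGT-KO-labelled libraries all 7 genes were higher after 7 days than with no recovery, by 0.073 for Cyp51 to 0.97 for Idi1 on the log2 scale. In the control-labelled libraries 6 of the 7 differed by at most 0.17 and Sqle was higher by 0.43. The medians were 0.66 and 0.050, where the medians of all genes were -0.027 and -0.051. None of the 7 was past 2-fold in either direction on the log2(CPM + 1) scale, although the plain CPM ratio of Idi1 in OGT-KO was above 2. Of all genes, 1.04% were called higher and 0.435% lower in the OGT-KO-labelled libraries, and 0.245% and 0.96% in those labelled control.

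The ratio of 7 days to no recovery in the OGT-KO-labelled libraries was 2.06 (1.75 to 2.44) for Idi1, 1.73 (1.66 to 1.80) for Hmgcs1 and 1.67 (1.35 to 2.08) for Fdps. It was 1.65 (1.51 to 1.81) for Lss, 1.31 (1.23 to 1.39) for Srebf2, 1.16 (1.06 to 1.26) for Sqle and 1.05 (0.995 to 1.11) for Cyp51. In the control-labelled libraries, only the interval of Sqle, at 1.35 (1.27 to 1.45), lay clear of 1. Taking the change of control from that of OGT-KO, the log2 difference was 0.87 for Idi1, 0.77 for Hmgcs1, 0.71 for Lss, 0.49 for Fdps, 0.41 for Srebf2, 0.023 for Cyp51 and -0.23 for Sqle. None reached 1 in size, where 2.09% of all genes were past it upward and 0.647% downward, and no test of this difference is possible with 1 library a group. In the OGT-KO-labelled libraries, 4 markers of cycling cells (Mki67, Top2a, Ccnb1 and Cdk1) summed to 111 CPM with no recovery and 254 after 7 days, against 7.01 and 8.51 in control, and the sum of the hepatocyte markers, which is mostly Alb, was at 1.21 times its level. Singly, the markers ran from a ratio of 0.512 for Tat to 1.25 for Alb. The part of either in the change was not tested.

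**Figure D3:**
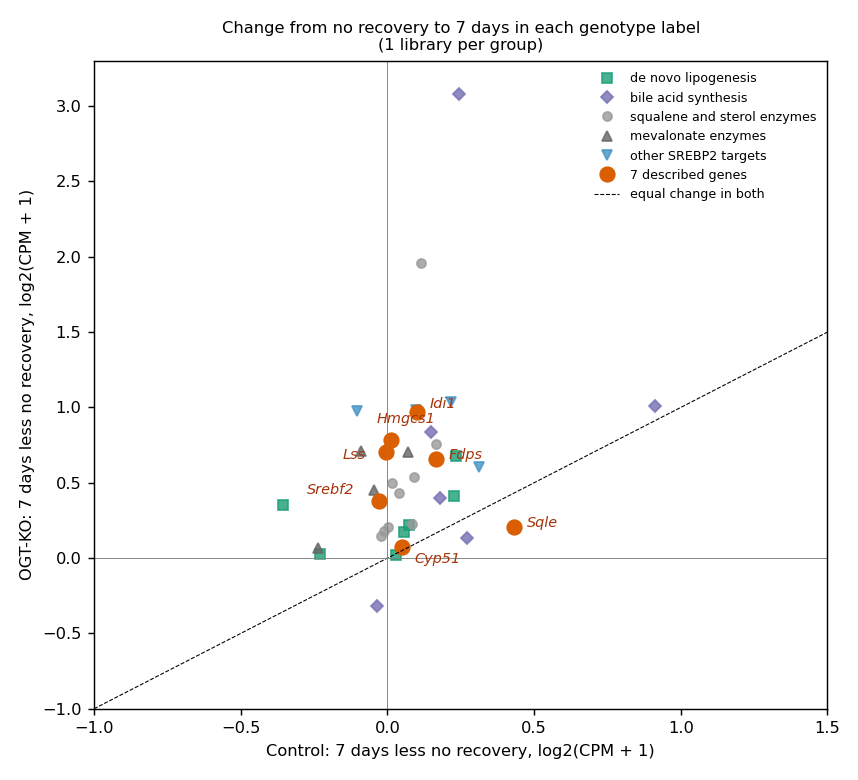
Log2 difference between 7 days and no recovery in the control-labelled libraries (x axis) and OGT-KO (y axis), each point 1 gene, for the 7 genes and 5 lists of related genes. All but Sqle of the 7 lie above the line of equal change, and the 2 points highest on the y axis are Cyp8b1 at 3.08 and Hsd17b7 at 1.96.

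The other enzymes of the pathway from acetyl-CoA to cholesterol were taken from a list. Of 4 mevalonate enzymes, Pmvk, a phosphomevalonate kinase, was called lower with no recovery (-1.17) and none was called after 7 days. Among all genes tested, 5.69% and 4.27% were called lower and 24.4% and 22.9% higher. Acat2, the thiolase of the first step, had 41.2 against 54.6 CPM and then 56.7 against 52.9. The median log2 difference of the 4 was -0.70 and then -0.046.

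Of 10 enzymes from squalene synthesis onward, 5 were called lower with no recovery and 3 after 7 days. Among all genes tested, 5.69% and 4.27% were called lower. Hsd17b7, a sterol ketone reductase, had 4.07 CPM in the OGT-KO-labelled library and 55.8 in the control library with no recovery. After 7 days it had 18.7 and 60.4 CPM. Its log2 difference of -3.49 and then -1.64 exceeded that of any of the 7 genes. Msmo1, a sterol methyl oxidase, was at -1.59 and -1.19, and Tm7sf2, a sterol reductase, at -1.44 and -1.29. Nsdhl and Ebp, which act in the same stretch, were called with no recovery alone, at -1.18 and -1.13. Lbr, a nuclear envelope protein with the same reductase activity as Tm7sf2, went the other way, at 0.80 and 1.22, and was the 1 enzyme called higher. It passed the filter only through its level in the OGT-KO-labelled libraries. The median of the 10 was -1.04 and -0.53.

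Over the 20 enzymes, the 6 described above included, 9 were called lower and none higher with no recovery, and 5 lower and 1 higher after 7 days. Of all genes tested, 5.69% were lower and 24.4% higher with no recovery, and 4.27% and 22.9% after 7 days. All 20 were higher after 7 days than with no recovery in the OGT-KO-labelled libraries, with a median of 0.47, and 13 of 20 in those labelled control, with a median of 0.029. Only Hsd17b7 was past 2-fold between the times, in the OGT-KO-labelled libraries, where 1.04% of all genes were called higher.

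**Figure D4:**
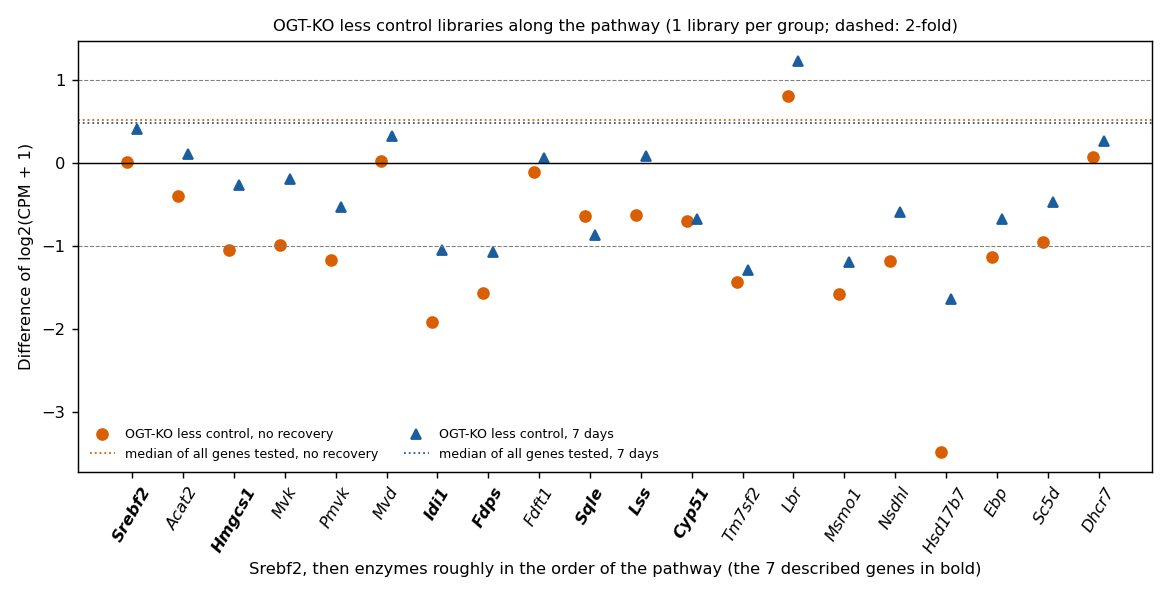
Difference of log2(CPM + 1) between the OGT-KO-labelled library and that labelled control for Srebf2 and 19 of the 20 enzymes along the pathway, circles for no recovery and triangles for 7 days; dotted lines are the medians of all genes and dashed lines 2-fold. Hsd17b7 is lowest at both times, Lbr is highest, and the triangle lies above the circle for all but Sqle.

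Genes that handle the factor were described next. Of 9 genes of SREBP processing, 1 was called in each direction with no recovery and none after 7 days. With no recovery, 5.69% of all genes tested were called lower and 24.4% higher, and after 7 days 4.27% and 22.9%. Insig1, which retains SCAP in the endoplasmic reticulum and is itself a target of the factor, was the one called lower, at 93.7 against 300.2 CPM (-1.67), and it was at 155 against 251 CPM after 7 days. Mbtps2, the second protease that cuts the precursor, was the one called higher, at 15.0 against 6.96 CPM, and it passed the filter only through the OGT-KO-labelled libraries. The median of the 9 was 0.41 and 0.30, below that of all genes by 0.094 and 0.18.

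Other known targets of the factor were lower as well with no recovery. Of 4, Stard4, Acss2 and Rdh11 were called lower with no recovery and Stard4 alone after 7 days. The shares of all genes called lower were 5.69% and 4.27%. Stard4, a carrier of cholesterol between membranes, had 21.2 against 106.5 CPM and then 42.5 against 99.0. Acss2, which makes acetyl-CoA from acetate, had 70.2 against 166 CPM and then 107 against 206. In the OGT-KO-labelled libraries, the median change of the 4 from no recovery to 7 days was 0.98. Rdh11 was past 2-fold higher, where 1.04% of all genes were.

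Genes of the other uses of isoprenoids were described by 9 genes. Of these, 7 passed the filter and none was called at either time. Their median was 0.43 and 0.44, slightly below the 0.51 and 0.48 of all genes. Among all genes tested, 24.4% and 22.9% were called higher and 5.69% and 4.27% lower. Nus1, a subunit of the dolichol-forming prenyltransferase, was at 69.5 against 51.5 and then 66.6 against 42.4 CPM. Fntb, which did not pass the filter, had 13.0 against 5.22 CPM and then 15.6 against 4.36. Pdss1, which did not pass it either, had 6.25 against 3.43 CPM and then 6.12 against 3.50.

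Uptake of lipoproteins was described by 9 genes, of which 8 passed the filter. Their median was 0.54 and 0.73, beside 0.51 and 0.48 for all genes, and 1 was called higher at each time, where 24.4% and 22.9% of all genes were. These were Npc2, a carrier of cholesterol in the lysosome, with no recovery (1.10) and Lipa, the lysosomal lipase, after 7 days (1.30). Lrp1, a large endocytic receptor, had 1196 against 1345 CPM and then 1347 against 1310. Vldlr, which did not pass the filter, had 11.2 against 0.659 CPM and then 18.6 against 0.350.

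Of 9 genes of sterol export, storage and LXR, none was called lower, and Soat1, Abcg1 and Soat2 were called higher with no recovery, a share near the 24.4% of all genes. After 7 days Soat1 and Abcg1 were called higher, where 22.9% of all genes were. The median of the 9 was 0.048 and -0.051, below that of all genes by 0.46 and 0.53. With no recovery 6 of the 9 lay below the median of all genes, and 7 after 7 days. Soat1 and Abcg1 passed the filter only through the OGT-KO-labelled libraries. Soat1, which esterifies cholesterol, had 25.8 against 4.05 CPM and then 19.8 against 2.05. Abcg1, an exporter, had 33.0 against 7.48 CPM and then 30.1 against 4.56. Both are also expressed by macrophages, whose marker sums are given above, and the part of these cells was not tested. Lcat, a plasma enzyme that esterifies cholesterol, was at 0.048 and -0.27.

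Lists of neighbouring pathways were set beside the 7 genes. Of 7 genes of de novo lipogenesis, Srebf1 and Scd1 were called lower with no recovery and Scd1 after 7 days, with a median of -0.074 and -0.0089. Among all genes tested, 5.69% and 4.27% were called lower at these times. Scd1, a desaturase, had 869 against 4363 CPM and then 1390 against 5136. Bile acid synthesis, the path by which hepatocytes break cholesterol down, was described by 6 genes, with a median of -1.43 and -1.38. Cyp8b1, Cyp7b1 and Cyp27a1 were called lower at both times, beside the same 5.69% and 4.27% of all genes. Cyp8b1 was at -5.82 and -2.99, Cyp7b1 at -3.28 and -3.56 and Cyp27a1 at -2.04 and -1.81. In the OGT-KO-labelled libraries, Cyp8b1 and Cyp7a1 were past 2-fold higher after 7 days, where 1.04% of all genes were. Cyp7a1 differed by a similar log2 value of 0.91 in control against 1.01 in OGT-KO, and Cyp8b1 by 0.24 against 3.08. The 7 described genes, at -0.70 and -0.68, thus lay between these 2 lists, and no test of the difference between lists is made.

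Among 3163 other genes averaging 50 CPM or more, the 5 whose pattern over the 4 libraries was closest to the median pattern of the 7 were Eci2, Fpgs, Cpox, Glyat and Mrpl24. Their root mean square difference from it was 0.018 to 0.035 on the log2 scale. Eci2, the closest, had 90.7 against 161 CPM with no recovery and 109 against 167 after 7 days. With 4 libraries such likeness is a description only.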

How the data were processed

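RNA of 4 pooled mouse liver libraries was measured by mRNA-seq. The authors deposited a table of CPM for 13903 genes. Its name speaks of DESeq2 normalization, but each column sums to 1000000, and 100% of values are whole multiples of 1 read within a tolerance of 0.01, so whole reads were recovered. The submitters' processing notes name STAR, DESeq2 and GRCm39; the counter, annotation and gene filter are not given in the sources used here. The reference annotation (GENCODE M21, GRCm38) is of another build. It was therefore used only for exon lengths and transcript matches (blastn 2.17.0+), and no gene coordinates from it are printed. Promoters and their printed coordinates are from RefSeq GRCm38.p6, which is also of another build than GRCm39.

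Differences of log2(CPM + 1) were taken over the whole table, without p-values, since each group is 1 library. All 7 genes are named; of each list, up to 4 genes called the same way at both times and the gene of highest mean CPM are named, as are the 5 genes of most similar pattern. Others were named after their values were seen, where they made up a count of at most 5, and Vldlr, Fntb and Pdss1 likewise. Members and lists were chosen with earlier results of these data known. The alternatives tried were pseudocounts of 0.1 and 10, dropping the filter or raising it to 50, upper-quartile and median-ratio scaling, a 4-fold threshold and an exact binomial test on the reads. Steps were tested on simulated data. Python 3.11.15, numpy 2.4.6, pandas 2.3.3, scipy 1.17.1 and matplotlib 3.10.9 were used. Some genes of the pathway, also ones this rule names, are not reported here. Sequence for Sqle and Fdps is not shown.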

Additional observations from a re-analysis of the deposited data

Results flagged for a closer look

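Lss differed between the labels in opposite directions at the 2 times, at -0.6321 with no recovery and 0.0776 after 7 days on the log2 scale. It also changed in opposite directions between the times, at -0.0035 in the control-labelled libraries and 0.7061 in those labelled OGT-KO. Srebf2 changed by -0.0271 in the control-labelled libraries and by 0.3806 in those labelled OGT-KO. With upper-quartile or median-ratio scaling Lss was below 0 at both times, and both genes changed upward in control, so the opposite directions were seen at the deposited scaling and not at those. These differences were not tested, since each group is 1 library, and the control changes of both genes lie within counting error. So does the difference of Lss between the labels after 7 days, at a ratio of 1.06 (0.973 to 1.15). Outlying samples could not be looked for in groups of 1.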

How the results depend on the processing

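Over the alternatives, the counts of the 7 genes past 2-fold and their median log2 differences gave 108 recomputed values. Of these, 89 were within 1.5 times the count or, for a median, within the median counting error of the single genes. Many of the 89 were counts of 0 that stayed at 0. The counts of 3 genes lower with no recovery and 2 after 7 days moved with several alternatives, as given next. No called value changed sign. With no recovery, 6 genes were past 2-fold lower in the OGT-KO-labelled library with upper-quartile or median-ratio scaling (medians -1.18 and -1.42), 1 with a mean of at least 50 CPM, which leaves 4 of the genes, and 0 at 4-fold. After 7 days, 4 were past it with either scaling (medians -1.16 and -1.36), and 0 with a pseudocount of 10, with a mean of at least 50 CPM (median -0.48) and at 4-fold. Between the times in the OGT-KO-labelled libraries, 1 gene (Idi1) was past 2-fold higher with a pseudocount of 0.1 and with median-ratio scaling, and the median was 0.35 with a pseudocount of 10 and 0.29 with a mean of at least 50 CPM. The median of the difference between the labels' changes was 0.22 with that filter. Where the construction of the alternative does not show it, the cause was not tested. Less the median of all genes, the median of the 7 between the labels was -1.35 to -0.95 with no recovery and -1.29 to -0.78 at 7 days over all alternatives.

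The exact binomial test on the reads, with Benjamini-Hochberg adjustment, compares 2 libraries and not the conditions. It called 8011 and 7902 of 8963 genes between the labels, 6 of the 7 at each time, and 3397 and 4965 between the times in control and OGT-KO, 1 and 6 of the 7. It removed no gene called at 2-fold. Among all genes, those higher in the OGT-KO-labelled library numbered 2185 and 2050, against 1113 and 1122 with upper-quartile scaling (lower: 992 and 747, against 510 and 383), 807 and 903 with median-ratio scaling (lower: 1396 and 1065), 1367 and 1344 with a pseudocount of 10, 4595 and 4492 with no filter, 525 and 503 with a mean of at least 50 CPM, and 691 and 788 at 4-fold (lower: 164 and 87). Between the times in control, 22 genes were higher and 86 lower, against 35 and 130 with a pseudocount of 0.1, 12 and 21 with 10, 134 lower with no filter, 11 and 31 with a mean of at least 50 CPM and 3 and 2 at 4-fold. In OGT-KO, 93 were higher and 39 lower, against 39 and 18 with a pseudocount of 10, 178 and 110 with no filter, 40 and 14 with the mean of 50 and 7 and 1 at 4-fold. For the difference of these changes, 187 were upward and 58 downward, against 54 and 32, 351 and 143, 73 and 20, and 9 and 5 in the same order. Leaving out a replicate was not possible. No paired analysis was possible because each group has 1 library. Fdps, with 138 reads in its lowest library, is the least precisely counted of the 7.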
